A study of Mus musculus with 21 samples.

Results

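The white fat estradiol-only peaks are sites where estrogen receptor alpha (ERα) was found in visceral and subcutaneous white fat of estradiol-treated mice, away from gene ends, and not in vehicle-treated visceral fat, brown fat or liver. They were chosen by presence and absence in 5 deposited peak lists and by position. A peak of the list for visceral white adipose tissue (vWAT) with estradiol on chromosomes 1 to 19 and X was a member if it overlapped a peak of the list for subcutaneous white adipose tissue (scWAT) with estradiol by at least 1 bp. It also had to overlap no peak of the lists for vWAT with vehicle, brown adipose tissue (BAT) with estradiol or Liver with estradiol. Its summit had to lie over 1 kb from every end of a protein-coding gene and at most 100 kb from a protein-coding gene span (mm10). Of 20715 peaks, 3921 met this rule (18.9%).

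The mice were of the CD-1 strain, aged 10 weeks, and received estradiol or vehicle before they were killed. Chromatin of whole frozen tissue was precipitated with the ERα antibody sc543 and sequenced (ChIP-seq). Estradiol groups had 4 libraries for vWAT, 3 for scWAT, 2 for Liver and 1 for BAT, and the vehicle group 2, from vWAT. The other tissues had no vehicle group. The labels spell the tissues vWAT, scWAT, BAT and Liver; the peak lists hold no RNA, so the tissues were not checked against their markers. The sources used here state neither dose, route, time of treatment nor sex, nor whether each library had its own animals. Each group had 1 peak list, so the spread between animals is unknown here and no replicate test was possible. The 95% intervals cover counting error over peaks or genes only. In whole tissue, fewer cells with bound receptor and less receptor bound per cell cannot be told apart. H3K27ac, a histone mark of active enhancers, was not analysed here, so "enhancer" can describe these sites by position alone.

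ERα is a nuclear receptor. When estradiol binds it, it forms dimers that recognise the estrogen response element (ERE), a palindrome of the half-sites GGTCA and TGACC with a 3-base spacer, and it also reaches DNA through other bound factors. Most of its sites in the genome lie far from promoters, in enhancers that can act on genes at a distance. In white fat, estrogen signalling is known for its part in fat distribution, in the balance between storage and release of fatty acids and in insulin sensitivity.

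Sequence could be read for a small part of the members, those whose summit fell in a RefSeq window around an annotated transcript start (250 bases before to 50 after it, GRCm38.p6, the assembly of mm10). There were 45 such members, and 30 of them lay at starts of genes that do not encode a protein. They are not typical of the members in position. The windows were searched on both strands for GGTCANNNTGACC. An exact match was found in 3 of the 45 windows (6.67%, 95% Wilson interval 2.29 to 17.9), and a match with at most 1 mismatch in 8 (17.8%, 9.29 to 31.3). In 7 of these 8 the element lay within 60 bp of the ERα summit. The stretches around these 7 elements are shown because they put the receptor's own recognition sequence under the peak. They run 5′ to 3′ on the strand of the annotated transcript, capitals mark the ERE, and each is named by the protein-coding gene to which the peak was assigned. The first 3 are exact matches and the other 4 have 1 mismatch.
Htr1d: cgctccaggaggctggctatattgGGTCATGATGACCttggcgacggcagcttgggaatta
Tex45: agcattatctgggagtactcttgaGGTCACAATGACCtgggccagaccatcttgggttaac
Lmntd1: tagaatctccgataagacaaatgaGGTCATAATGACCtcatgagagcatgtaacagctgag
Ampd3: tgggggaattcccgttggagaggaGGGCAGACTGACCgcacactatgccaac
Gdi2: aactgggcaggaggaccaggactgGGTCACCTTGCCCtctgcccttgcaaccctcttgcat
Slc44a3: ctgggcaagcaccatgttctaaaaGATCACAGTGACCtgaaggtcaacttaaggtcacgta
Cops8: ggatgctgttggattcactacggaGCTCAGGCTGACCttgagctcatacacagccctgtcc

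The printed stretch near Htr1d, which encodes a serotonin receptor, is chr4:136387379-136387439 on the plus strand, 36.1 kb from the gene span and at the start of the non-coding gene Gm31295. Its peak had an enrichment of 6.78 in vWAT and 6.86 in scWAT, and the exact element within the stretch was 49 bp from the vWAT summit. Inside Tex45 the stretch chr8:3470772-3470832 (plus strand) held an exact element 12 bp from the summit of a peak with enrichments of 6.77 and 6.37. The stretch in Lmntd1, a gene with a lamin tail domain, is chr6:145434931-145434991 on the minus strand, its element was 59 bp from the summit, and the peak's enrichments were 6.25 and 3.78. In vWAT these 3 peaks lay between the median (5.80) and the upper quartile (7.98) of the members. In scWAT those for Htr1d and Tex45 were above the members' upper quartile (5.31), and that in Lmntd1 was just below the median (3.89).

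Among the elements with 1 mismatch, the one in the stretch chr7:110699733-110699784 (minus strand) belonged to the strongest peak with an element, with 9.51 in vWAT and 7.51 in scWAT. It lies 68.0 kb from Ampd3, which encodes an AMP deaminase. The stretch chr13:3478058-3478118 (plus strand), 59.98 kb from Gdi2, a regulator of Rab proteins, had its element 7 bp from the summit. Its peak had 5.10 in the vWAT list, below the members' median there, and 8.05 in the scWAT list, above it. The remaining stretches are chr3:121545007-121545067 on the plus strand, 12.7 kb from Slc44a3, and chr1:90504072-90504132 on the minus strand, 98.9 kb from Cops8, with the element 10 and 32 bp from the summit. The eighth element, near Pcbp1, was 225 bp from the summit and is not shown.

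The strongest member with a window held no ERE within 1 mismatch. It lies 95.6 kb from Edn1, which encodes the vasoconstrictor peptide endothelin-1, with enrichments of 14.8 in vWAT and 11.5 in scWAT. The part of the window before the start of the non-coding gene Gm32833 is printed, the 250 bases of chr13:42403390-42403639 on the minus strand. The single half-site in these bases is in capitals.
Edn1: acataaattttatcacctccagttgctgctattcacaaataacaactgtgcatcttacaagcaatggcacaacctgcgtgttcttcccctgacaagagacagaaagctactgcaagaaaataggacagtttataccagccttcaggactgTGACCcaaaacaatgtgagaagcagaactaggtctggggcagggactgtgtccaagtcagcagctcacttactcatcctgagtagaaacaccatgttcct
The next strongest, 15.4 kb from Fosl2, an AP-1 subunit gene, likewise held 1 half-site and no ERE (12.8 and 11.4). Median vWAT enrichment was 5.67 for the 8 members with an element and 5.56 for the 37 without, so the vWAT medians were close, over few windows. In scWAT the 8 with an element had 8.05, 7.51, 6.86, 6.37, 5.25, 3.78, 3.72 and 3.43. Those without ranged there from 2.39 to 11.5, and the scWAT median over all members was 3.89. No difference was tested in either depot. A window that lacks these letters says nothing of the DNA beside it, since the windows cover only part of a peak.

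The share of windows with an element is given beside that of other peaks read the same way. For vWAT estradiol peaks found in none of the other lists, under the same distance rule, 3 of 65 windows held an ERE with at most 1 mismatch (4.62%, 1.58 to 12.7). For those also found with vehicle it was 2 of 183 (1.09%, 0.300 to 3.90), and for those shared with Liver but not vehicle 0 of 40, which allows a share of up to 7.5%. Over the first window of all 26794 annotated genes it was 228 (0.851%), with 18 exact matches (0.0672%). The intervals of the members and of the peaks found with vehicle do not overlap, whereas those of the members and of the vWAT-only peaks do. Base composition differed too: the median GC content was 49.7% in the members' windows, 53.3% in the vWAT-only windows and 57.3% in those held with vehicle, and the part of GC content in the shares was not tested.

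A half-site alone, GGTCA or TGACC, occurred in 35 of the 45 member windows (77.8%) against 52.3% of the vWAT-only windows, 62.5% of those shared with Liver but not vehicle, 42.1% of those held with vehicle and 40.3% of the first windows of all genes. Other motifs were searched as a description. TTGCNNAA, a C/EBP motif, was in 7 member windows (15.6%), against 27.7% of the vWAT-only windows, 12.6% of those held with vehicle and 10.8% of all genes' windows. TGANTCA, the AP-1 motif, was in 2 member windows (4.44%), against 12.3%, 4.37% and 7.98%. The forkhead core TGTTTAC was in 1 (2.22%), against 4.62%, 3.83% and 3.58%. The NF1 palindrome of TTGGC and GCCAA was in none (0.0411% of all genes' windows). An exact ERE contains both half-sites, so the counts of EREs and of half-sites overlap by construction.

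The rule narrowed the vWAT estradiol list step by step. Of its 20715 peaks, 10017 overlapped an scWAT peak, 6205 of these had no vehicle peak, 5779 no BAT peak either and 5036 also no Liver peak. The distance to gene ends left 4558, and the distance to a gene span 3921. From the other side, the members overlapped 3927 scWAT peaks, 21.9% of the 17971 in that list, and 22 members touched more than 1 of them. The vehicle, BAT and Liver lists held 7400, 5193 and 21411 peaks. A short list leaves more peaks unmatched: with every list held to the 5193 peaks with the smallest p-values, 1180 peaks met the rule, 1050 of them among the 3921.

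The members were sites of intermediate strength in vWAT. Enrichment, the authors' fold over a background that is not stated, is comparable only within a list. Its median over the members was 5.80 (5.70 to 5.90, exact order-statistic interval), its lower and upper quartiles 4.49 and 7.98 and the range 2.17 to 20.9. Peaks of the vWAT list found in no other list, under the same distance rule, had a median of 4.36 (n = 6929), those shared with Liver but not vehicle 4.64 (n = 848) and those held with vehicle 6.13 (n = 1580). The members were thus above the vWAT-only peaks and close to the held peaks at the median, but the upper quartile of the held peaks reached 9.95. Over all 13615 vWAT peaks under the same distance rule, members included, the median was 4.72 and the upper quartile 6.25. At the median the members were thus stronger than near-gene peaks in general. Widths followed the same order, with medians of 499 bp for members, 358 bp for vWAT-only peaks and 558 bp for held peaks. The classes were made from the same lists, so these medians are descriptions and no test was made.

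Ranked by p-value, few of the strongest vWAT peaks were members. Of ranks 1 to 500, 10.8% were (54 peaks), and 77% of that group overlapped a vehicle peak. The share rose to 35.3% at ranks 2001 to 4000 (706 of 2000, 33.2 to 37.4) and fell to 9.63% among ranks 16001 to 20715. The share was thus highest in the upper middle of the list, below the ranks where most peaks were also found with vehicle. Peaks at gene ends or over 100 kb from a gene made up 50.6% of the first group and 29.6% of the last.

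**Figure D1:**
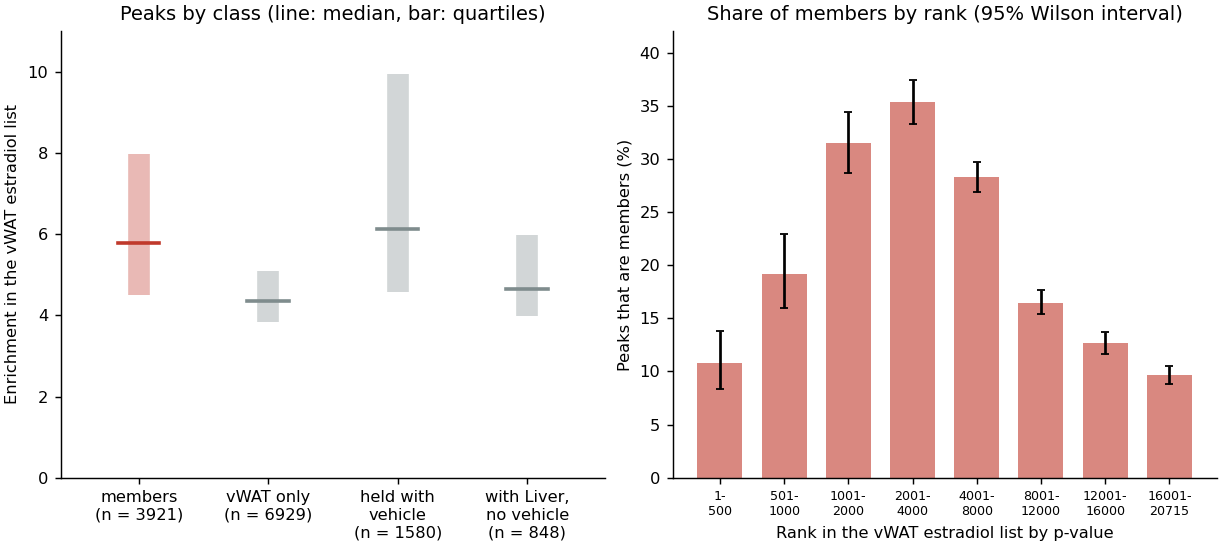
Left, enrichment in the vWAT estradiol list (vertical axis) for members and 3 other classes of peaks under the same distance rule, with the line at the median and the bar from the first to the last quartile; right, percent of peaks that are members by rank of p-value, with 95% Wilson intervals. Members have a median of 5.80, between the vWAT-only peaks (4.36) and those held with vehicle (6.13), and their share is highest at 35.3% for ranks 2001 to 4000.

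In scWAT the peaks that matched members had a median enrichment of 3.89 (3.81 to 3.95) and a range of 1.56 to 20.5. Strong members in one depot tended to be strong in the other. Across the 3921 members, log2 enrichment in the lists had a Pearson r of 0.63 and the enrichments a Spearman rho of 0.59. These are descriptions over peaks, which share the libraries of each list. The 12 strongest members by vWAT and the 12 strongest by scWAT had 8 peaks in common.

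Rnase10, a gene of the secreted ribonuclease family, lies 19.9 kb from the strongest vWAT member (20.9 in vWAT, 17.2 in scWAT), whose summits in the depots were 18 bp apart. A peak at chr5:74783860-74784513, 81.2 kb from Lnx1, a ubiquitin ligase gene, had 19.1 in both lists, with summits 7 bp apart. Inside Ptpn5, which encodes a tyrosine phosphatase, the member reached 17.01 in vWAT and 19.001 in scWAT. These 3 ranked 1, 3 and 11 among the members by vWAT and 4, 2 and 3 by scWAT, so they were near the top of both lists, with summits almost at the same base.

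Others were among the 12 strongest in 1 list only. The member inside Ulk4, a gene of the same kinase family as the autophagy kinase Ulk1, was the strongest in scWAT (20.5) and rank 134 in vWAT (12.7). Thsd4, a gene of a thrombospondin-repeat matrix protein, held a peak at chr9:60419249-60419595 with 16.1 in scWAT (rank 9) and 7.13 in vWAT (rank 1284), and its summits were 2 bp apart. In the other direction, the peak 5.18 kb from Dcn, the gene of the matrix proteoglycan decorin, had 17.7 in vWAT (rank 9) and 7.21 in scWAT (rank 425). Zfp618, a zinc finger gene, held one with 16.9 and 8.03 (ranks 12 and 310). In the list where they ranked lower, all of these but the Thsd4 peak were still above the members' upper quartile (7.98 in vWAT, 5.31 in scWAT). No library-level values were at hand, so how far such differences in rank exceed the spread between animals is unknown here.

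The other members named for their strength were among the 100 strongest in both lists. Sptlc1, which encodes a subunit of serine palmitoyltransferase, had 19.4 in vWAT and 15.5 in scWAT, and Wdr27 18.3 and 13.9. The peaks near Efcab1 (18.5 and 10.6), Zcchc10 (17.9 and 16.4) and Gng12, a G protein gamma subunit gene (17.9 and 16.4), lay 35.9, 9.80 and 42.6 kb from the gene. Zfp469 held one with 17.9 and 16.5, and the peak 33.5 kb from Ngfr, the neurotrophin receptor p75 gene, had 17.5 and 15.9. Fbxw17 and Ctr9, a subunit gene of the PAF1 transcription elongation complex, entered through scWAT (17.0 and 15.4, against 15.0 and 16.9 in vWAT). Of these 16 peaks 7 lay inside the gene they were assigned to, and the other 9 were 5.18 to 81.2 kb outside.

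**Figure D2:**
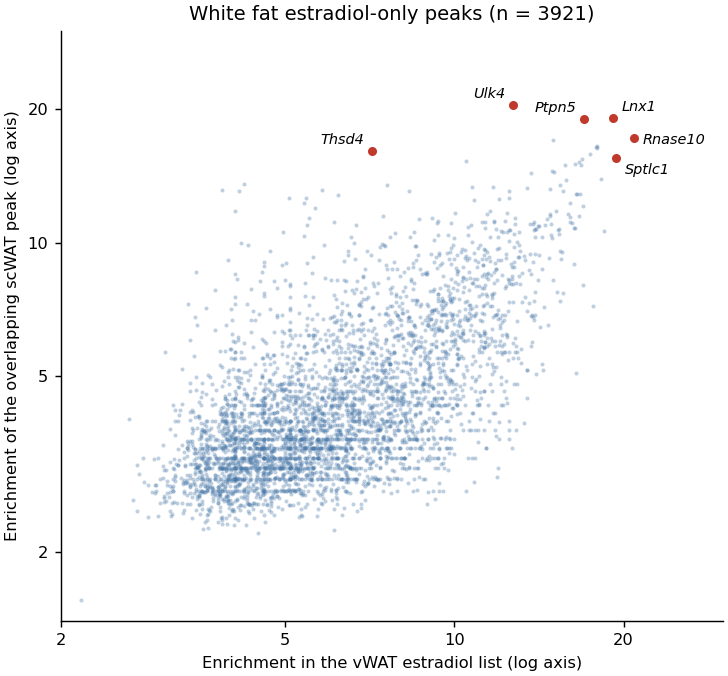
Each point is 1 of 3921 members, with enrichment in the vWAT estradiol list on the horizontal axis and that of the overlapping scWAT peak on the vertical axis, both log axes; red points are 6 of the named members. The quartiles are 4.49 and 7.98 in vWAT and 3.23 and 5.31 in scWAT, and Thsd4 and Ulk4 stand out by their scWAT values of 16.1 and 20.5.

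The rule asked for 1 bp of overlap and set no distance between the summits of the depots. Overlap does limit how far apart summits can lie at a given peak width, and the share expected from overlap alone was not computed. The median distance between the vWAT and scWAT summit of a member was 56 bp (quartiles 25 and 107 bp, largest 859 bp). Summits were within 100 bp of each other in 2844 members (72.5%, 71.1 to 73.9). For 1808 other near-gene peaks shared with scWAT, which also had a vehicle, BAT or Liver peak, the share was 72.7% (70.6 to 74.7). These other peaks were stronger (median 6.94), so the classes were also set side by side at like strength. In the weakest of 4 equal groups of members 52.4% had summits within 100 bp (49.2 to 55.5) and in the other class 45.4% (40.2 to 50.7) over the same range of enrichment. In the next groups it was 65.4% against 56.5% and 79.6% against 68.0%. In the strongest it was 92.7% (90.9 to 94.1) against 94.6% (92.7 to 96.0). At like strength the share with close summits was thus higher in the members than in the other shared peaks in the middle groups, with intervals that do not overlap, and in the strongest and the weakest group the intervals overlapped. The differences themselves were not tested. Peak width differed as well: at enrichments of 5.795 to 7.98 the median was 526 bp for members and 568 bp for the others.

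**Figure D3:**
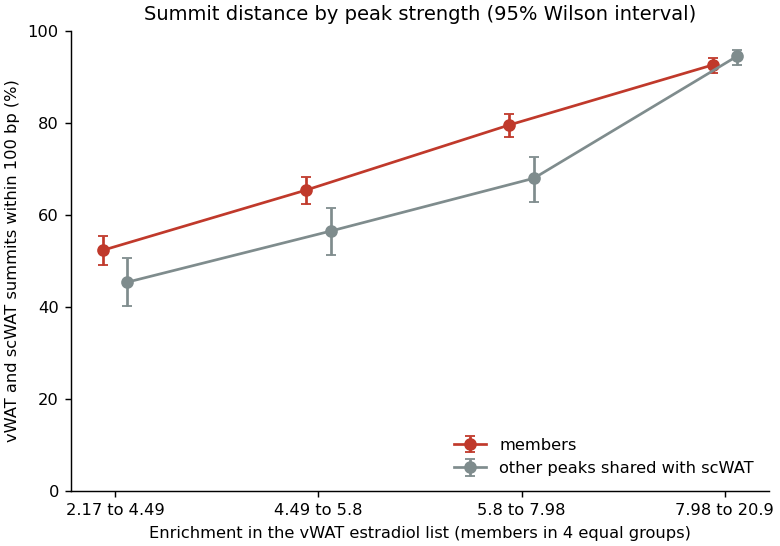
Percent of peaks whose vWAT and scWAT summits lie within 100 bp (vertical axis, 95% Wilson intervals) in 4 ranges of vWAT enrichment that each hold an equal share of the members (horizontal axis), for members and for other near-gene peaks shared with scWAT. The share rises from 52.4% to 92.7% in members and from 45.4% to 94.6% in the others.

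By position, 2265 members (57.8%, 56.2 to 59.3) lay inside a protein-coding gene span. The share was 58.6% over all 13615 vWAT peaks under the same distance rule, a value inside the members' interval. Outside spans, 511 lay up to 10 kb from a gene, 453 at 10 to 25 kb, 348 at 25 to 50 kb and 344 at 50 to 100 kb. Median enrichment was between 5.61 and 6.07 in all 4 distance ranges and 5.79 inside genes. Strength thus changed little with distance to the gene.

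Strand was known for part of the genes. Of 1266 members outside a gene with known strand, 644 were upstream (50.9%, 48.1 to 53.6), so members lay before and behind genes in about equal numbers. Of 1763 inside such a gene, 641 were in the first of 3 equal parts of the span (36.4%, 34.1 to 38.6). For peaks held with vehicle the share was 378 of 719 (52.6%, 48.9 to 56.2), and 16.9% of them were within 1 kb of an annotated start of a protein-coding transcript, against 73 members (1.86%). Although the rule removed gene ends for both classes, internal starts remained. The share near these was higher in the peaks held with vehicle than in the members. This did not set the members apart from the vWAT-only peaks, of which 36.7% were in the first part and 1.83% near such a start. For peaks shared with Liver but not vehicle the values were 36.2% and 8.37%. Among these classes the peaks held with vehicle had the highest share by both measures.

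On the autosomes the share of vWAT peaks that were members was between 16.3% (chromosome 7) and 20.9% (chromosome 11). On X it was 12.7% (39 of 307, 9.43 to 16.9), below 18.9% in the whole list. The intervals of chromosome 7 (14.5 to 18.4) and X overlap. Some members missed a peak of the other lists by a short distance, which was counted for members only. A vehicle peak lay within 1 kb of 78 members, a BAT peak of 39 and a Liver peak of 147, together 233 members (5.94%). Within 10 kb there was a Liver peak for 1011 members (25.8%) and a vehicle peak for 487 (12.4%).

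Most members had no other member close by. Another member lay within 10 kb for 603 of them (15.4%, 14.3 to 16.5), as 257 pairs, 19 groups of 3 and 8 groups of 4. Peaks of the vWAT list that were not members were left out of this count. It thus does not show how isolated the sites were, and no such share was computed for the whole list. The groups of 4 were assigned to Col4a1, Htra3, Lrmda, Trpc6, Lhfpl2, Fam220a, Errfi1 and Ell. They extended over 7.60 kb (Errfi1) to 23.9 kb (Lhfpl2), and their members ranged from 2.93 (Htra3) to 10.6 (Col4a1) in vWAT enrichment.

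When each member was assigned to 1 gene, 2660 genes received at least 1, of which 1907 had a single member and 63 had 5 or more. The leading genes were mostly long. Adam12, a metalloprotease of the adamalysin family, held 11 of its 18 near-gene vWAT peaks as members, all inside its 342 kb span, with enrichments from 3.59 to 16.3. Lrmda, with a span of 1037 kb, also had 11 (of 34), 5 of them inside. Trabd2b, which encodes a protease that cuts Wnt proteins, had 9 of 23 (up to 16.3), Prkce, a protein kinase C gene, 9 of 22 (up to 13.9), Adamts2, the procollagen N-proteinase gene, 9 of 17 (up to 12.3) and Gse1 9 of 20 (up to 7.70). Zmiz1, a transcriptional coregulator gene, had 8 of 16 (up to 16.5), Tbc1d1, a Rab GTPase regulator downstream of insulin, 8 of 11 (up to 9.63) and Spon1, which encodes a matrix protein, 7 of 17 (up to 13.5). These counts are not corrected for gene length.

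Errfi1, a feedback inhibitor of the epidermal growth factor receptor, was the short gene among them, with a span of 15.1 kb. It had 10 members, none inside the gene, out of 12 assigned peaks. Within 100 kb of the gene on either side the vWAT estradiol list held 16 peaks and the scWAT list 16, against 2 in vWAT with vehicle, 2 in BAT and 5 in Liver. The strongest member there, 53.9 kb below the lower end of the gene span, had 11.97 in vWAT and 9.14 in scWAT. A stronger vWAT peak (12.7) lay on the other side at 111 kb from that end, but it matched a vehicle peak and was no member. Errfi1 was named for its number of members, and the rule asks that members overlap no vehicle, BAT or Liver peak. The vehicle and BAT lists are also the shortest, with 7400 and 5193 peaks. The contrast between lists was thus partly set in advance, as it was at the loci below, which were chosen after their values were seen.

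Around Col4a1, the gene of a basement membrane collagen chain, all 5 vWAT estradiol peaks within 25 kb of the span were members. Their vWAT enrichments were 6.52, 6.40, 4.52, 3.76 and 10.6 in order along the chromosome, and those of the matching scWAT peaks 5.13, 3.67, 2.88, 2.93 and 10.4. The same member was the strongest in both depots. One more scWAT peak (2.53) and 1 Liver peak (3.23) lay there, and none from the vehicle and BAT lists. At Greb1, a classical estrogen target, 3 of 4 vWAT peaks were members, with 8.32, 8.85 and 16.9 in vWAT and 6.81, 5.66 and 12.1 in scWAT. The remaining one (9.66) overlapped the only vehicle peak of the gene (4.77), and the 3 Liver peaks lay elsewhere, at 3.33 to 4.04. At Vegfa, which encodes an angiogenic growth factor, a member inside the gene had 15.4 in vWAT and 13.5 in scWAT. There the 4 Liver peaks (3.39 to 4.43) fell at other places and no vehicle or BAT peak was listed.

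**Figure D4:**
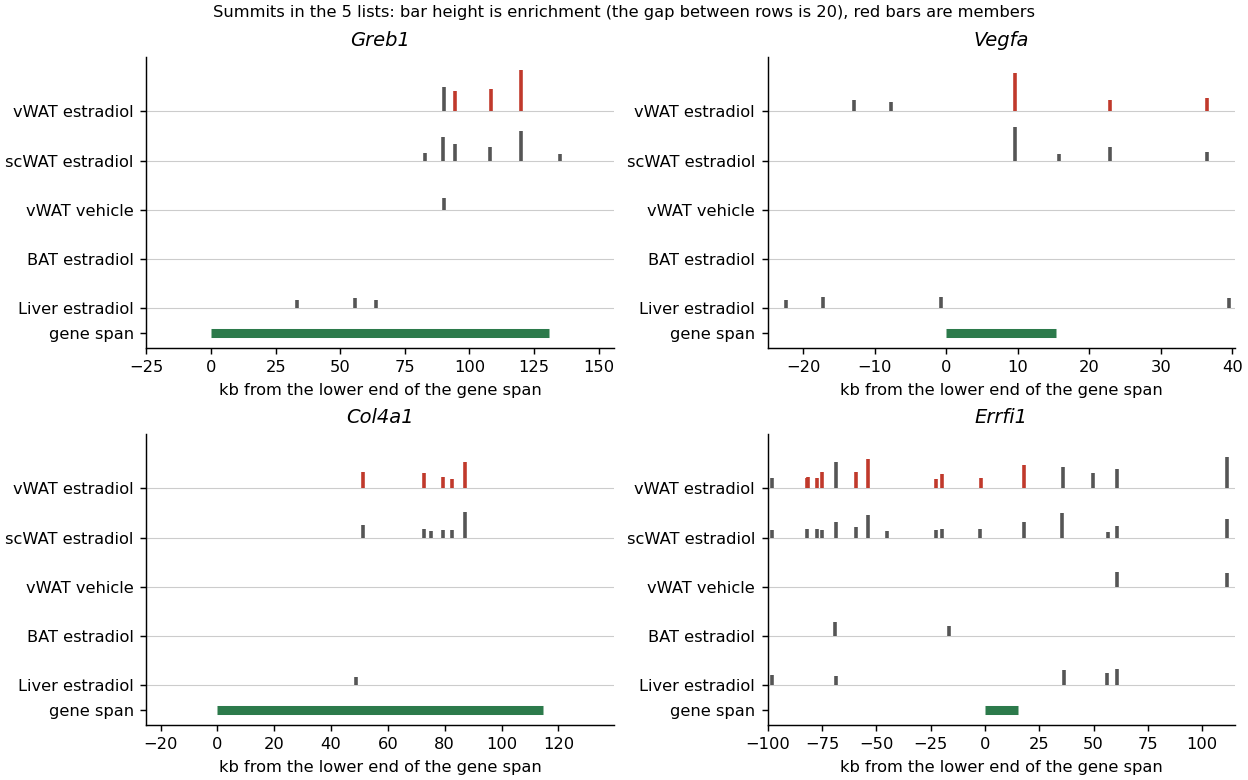
Summits of the 5 lists around Greb1, Vegfa, Col4a1 and Errfi1, in kb from the lower end of the gene span (horizontal axis); bar height is enrichment on a common scale, red bars are members and the green bar is the gene span. At Col4a1 all 5 vWAT bars are red, and around Errfi1 10 of 16 are.

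To read the members by gene, a gene was counted when its span, widened by 25 kb on both sides, held a member summit. This held for 3387 of 21631 protein-coding genes (15.7%) and for 25.5% of the 13301 genes with any vWAT estradiol peak that near. For 663 genes all such vWAT peaks were members. Of the 3387 genes 1431 (42.2%) had no vehicle peak within 25 kb, and 382 had no peak of the vehicle, BAT or Liver lists. Genes with a member had such peaks at a higher share than genes in general: 57.8% against 44.8% of all genes for vehicle, 40.7% against 29.7% for BAT and 81.5% against 67.5% for Liver. Genes with a member were long: their median span was 34.6 kb against 17.3 kb for all genes, and the share with a member was 8.47%, 13.9% and 24.6% in 3 equal groups of genes from short to long. Neighbouring genes can share a peak. For some genes named below the strongest counted member was assigned to another gene, among them Per2, Npas2, Pck1, Lrp6, Agt, Fgf1 and Col1a1. The 20 gene lists that follow hold 306 genes, all found in the gene table, and their counts are descriptions. The share printed for a list is over all its genes, so it is to be read against 15.7%. The value of 25.5% is matched by the share among list genes with any vWAT estradiol peak that near. That share was 70.6% for matrix, 61.5% for estrogen response, 38.5% for Wnt signalling and 11.1% for depot developmental factors. With each peak list held to the length of the shortest, 5.37% of all genes had a member, and the counts of 6 of the 20 lists stayed within 1.5 times of those given. Among these 6 were macrophages and mammary epithelium, with 0 genes in both settings, and hepatocytes, with 1 in both. The values given for a gene are those of its strongest member, first in vWAT and then in the scWAT peak it overlaps.

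**Figure D5:**
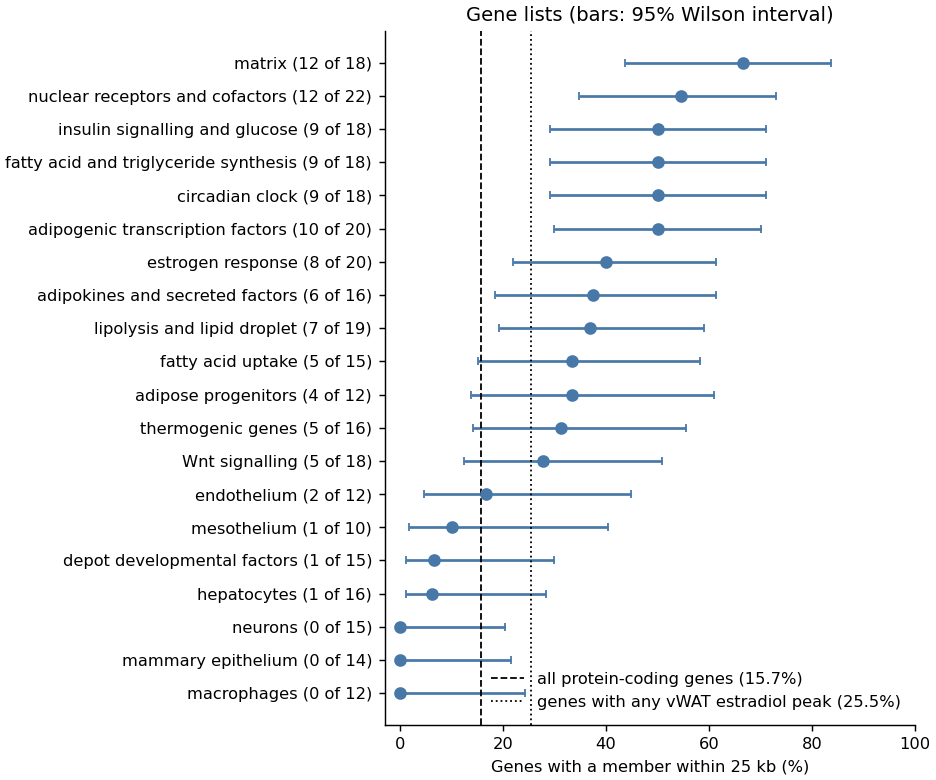
Percent of the genes of each list with a member within 25 kb (horizontal axis, 95% Wilson intervals), with counts beside the names. The matrix list is highest here (12 of 18, but 6 of 18 at equal length of the peak lists), 3 lists are at 0, and the lines mark 15.7% of all protein-coding genes and 25.5% of those with any vWAT estradiol peak. The points are over all genes of a list, so only the line at 15.7% has a like denominator.

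Of 20 estrogen response genes, known from other tissues, 8 had a member (40%, 21.9 to 61.3), and 7 of these 8 also had a vehicle peak within 25 kb. Besides Greb1, the strongest were at Pgr, the progesterone receptor gene (15.3 in vWAT and 7.75 in scWAT, inside the span), Kcnk5, a potassium channel gene (13.9 and 9.42, with the summits at the same base), Sgk1, a kinase gene (10.8 and 6.82), and Esr1, the gene of ERα itself (10.3 and 6.13). Sgk1 was the one without a vehicle peak. Genes of the list without a member included Igfbp4, Ctsd, Myc, Ccnd1 and Tff1. Of these, Igfbp4 (strongest 15.5), Ccnd1 (6.40) and Myc (4.65) had other vWAT estradiol peaks within 25 kb, whereas Ctsd and Tff1 had none.

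Fat storage and release genes were described in 3 lists. In fatty acid and triglyceride synthesis 9 of 18 genes had a member (50%, 29.0 to 71.0), and all 18 had some vWAT estradiol peak. Scd2 and Scd1, which encode desaturases, had members with 9.95 in vWAT and 7.89 in scWAT and with 8.73 and 3.47. Srebf1, the gene of a lipogenic transcription factor, held one 1.20 kb from its end (9.51 and 5.70). Acaca, the gene of acetyl-CoA carboxylase, had 7.08 and 4.88, and Gpam, which encodes the first enzyme of glycerolipid synthesis, 6.89 and 6.59. Fasn, the fatty acid synthase gene, had a weaker member (4.66 and 2.998), while its strongest vWAT peak (18.6) was no member.

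Of 19 lipolysis and lipid droplet genes 7 had a member (36.8%, 19.1 to 59.0), most of them weak, with a median of 4.18 for the strongest member per gene. Mgll, the monoglyceride lipase gene, held 3 members and no other vWAT peak, the strongest with 8.35 in vWAT and 4.94 in scWAT. A member 5.45 kb upstream of G0s2, the gene of an inhibitor of adipose triglyceride lipase, had 8.29 and 6.77. Prkar2b, which encodes a regulatory subunit of protein kinase A (4.19 and 3.19), Adrb1, the gene of the beta-1 adrenergic receptor (4.18 and 3.09), and Plin2, a droplet coat gene (4.17 and 3.73), followed. Pnpla2 and Lipe, the genes of the main triglyceride and diglyceride lipases, had no member. Within 25 kb Pnpla2 did have 5 vWAT estradiol peaks (strongest 9.998) and Lipe 2 (strongest 3.22). In fatty acid uptake 5 of 15 genes had a member (33.3%, 15.2 to 58.3), led by Lrp1, a lipoprotein receptor gene (11.3 and 7.18). Cav2 (8.13 and 3.16) and Cav1 (5.68 and 3.79), genes of caveolins, Lpl, the lipoprotein lipase gene (6.97 and 3.76), and Cd36, a fatty acid translocase gene (3.05 and 2.59), were the others.

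Among adipogenic transcription factors 10 of 20 genes had a member (50%, 29.9 to 70.1), at a median span of 54.6 kb. Stat5b, a signal transducer gene, led with 13.6 in vWAT and 11.04 in scWAT, followed by Zbtb16 (9.87 and 9.70), Srebf1 and Rxra, a partner of PPARγ (9.10 and 6.38). Prdm16, a regulator of brown and beige fat identity, had 6.95 and 7.89 inside its span, 66.8 kb from the nearer end. Members at the master regulators of adipogenesis were weaker, with 6.03 at Cebpa, which had 3, and 5.03 at Pparg. Within 25 kb Pparg also had a stronger vWAT estradiol peak (9.23) that was no member.

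Of 16 genes of adipokines and other secreted factors 6 had a member (37.5%, 18.5 to 61.4). After Vegfa, the member 16.2 kb upstream of Lep, the leptin gene, was among the strongest (12.7 in vWAT and 5.49 in scWAT), and neither vehicle, BAT nor Liver peaks lay within 25 kb of that gene. Fgf1, a growth factor gene, had 12.5 and 3.95, Nampt, which encodes an enzyme of NAD synthesis, 11.7 and 5.33, and Agt, the angiotensinogen gene, 7.54 and 6.52. Adipoq, the adiponectin gene, had no member but 2 other vWAT estradiol peaks within 25 kb (strongest 7.05). In insulin signalling and glucose 9 of 18 genes did (50%, 29.0 to 71.0). Pik3r1, which encodes the regulatory subunit of phosphoinositide 3-kinase, had 10.7 and 4.70, Pck1, the gene of a glyceroneogenic enzyme, 10.4 and 3.78, and Insr, the insulin receptor gene, 9.17 and 4.02. Ptpn1, a phosphatase gene that acts on the insulin receptor (5.11 and 3.53), and Tbc1d4 (4.90 and 3.93) followed.

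Of 18 matrix genes 12 had a member (66.7%, 43.7 to 83.7), the highest share of the 20 lists, and 7 of the 12 had no vehicle peak within 25 kb. At equal length of the peak lists 6 matrix genes had one, and 7 of the 20 estrogen response genes, so that order did not hold, and no difference between lists was tested. The median span of the matrix list was 43.9 kb. Dcn and Col4a1 are described above. Col6a3, a collagen VI chain gene, had a member 8.39 kb downstream with 14.5 in vWAT and 10.9 in scWAT, Lama4, a laminin gene, one with 8.47 and 4.29, and Fbn1, the fibrillin-1 gene, 8 members within 25 kb, the strongest with 8.38 and 8.18. Members near the fibrillar collagen genes Col3a1, Col1a1 and Col1a2 were weaker, with 5.88, 4.96 and 4.30 in vWAT. Of 12 adipose progenitor genes 4 had a member (33.3%, 13.8 to 60.9), all without a vehicle peak. Cd34, a stem cell surface marker gene, had one 8.80 kb upstream (14.1 and 10.9) and Fap, a fibroblast protease gene, one inside (11.8 and 6.85). Pdgfrb (4.84 and 6.80) and Ly6a (3.45 and 3.01) had weaker ones, and Pdgfra had none.

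Nuclear receptor and cofactor genes had members at 12 of 22 (54.5%, 34.7 to 73.1). The median span of this list was 97.9 kb, and 18 of its genes had a vehicle peak. Members at Pgr, Esr1 and Rxra, described above, were among the strongest of this list. Esr2, the gene of ERβ, had no member. Of 18 circadian clock genes 9 had one (50%, 29.0 to 71.0): Per2 with 11.05 and 5.66, Bhlhe40 with 8.83 and 4.98, Cry2 with 6.25 and 4.02, Npas2 with 5.53 and 4.32 and Arntl with 5.50 and 3.75 were the strongest, of which Per2, Cry2 and Bhlhe40 are repressors of the clock and Npas2 and Arntl its activators. The Per2 member lay 24.8 kb outside the span and was assigned to Traf3ip1. Arntl also had a vWAT peak of 18.1 that was no member.

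In 3 further lists the share was lower. In Wnt signalling 5 of 18 genes had a member (27.8%, 12.5 to 50.9), among them the coreceptor genes Lrp5 (10.7 and 10.9) and Lrp6 (9.85 and 5.74). Tcf7l2 (5.25 and 4.50) and Tcf7l1 (4.04 and 2.505), transcription factor genes, and Sfrp2, a secreted inhibitor gene (4.96 and 4.25), were the rest. Of 16 thermogenic genes 5 had a member (31.2%, 14.2 to 55.6). The member 22.9 kb upstream of Ucp1, the uncoupling protein gene, had 6.48 in vWAT and 9.39 in scWAT and was assigned to Tbc1d9. Besides Prdm16, those at Ppara (6.45 and 7.23), Pank1 (4.08 and 3.18) and Adrb3 (3.93 and 4.12) were counted. Of 15 depot developmental factors, Meox1 alone had a member (3.85 and 4.24). That list's share, 6.67% (1.19 to 29.8), is below that of all genes, with an interval that contains 15.7%.

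Lists of other cells that fat pads or livers could hold were short and had few genes with a member. No member lay within 25 kb of the 12 macrophage, 14 mammary epithelium and 15 neuron genes. These counts of 0 allow shares of up to 25%, 21.4% and 20%, so a share like that of all genes was not detectable as different. They also moved with the settings: with peaks under 2 on the −log10 q scale left out, 1 mammary epithelium and 1 neuron gene had a member, at equal list length 1 neuron gene, and with each member given to 1 gene 1 macrophage and 2 mammary epithelium genes. Among 12 endothelium genes Eng (10.9 and 5.40) and Flt1 (6.48 and 3.78), both receptor genes, had a member, and among 10 mesothelium genes Lrrn4 (4.01 and 2.91). In the hepatocyte list Hnf4a was the only one of 16 (7.85 and 3.94), through a peak 23.4 kb downstream that was assigned to Ttpal. The share was 16.7% (4.70 to 44.8) for endothelium, 10% (1.79 to 40.4) for mesothelium and 6.25% (1.11 to 28.3) for hepatocytes. All these intervals contain 15.7%, the share of all genes, and the endothelium share was close to it. The part of any of these cell types in the members was not tested.

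The members nearest to the distance limits had vWAT enrichments between 4.79 and 7.05, within the members' quartiles. Just over 1 kb from a gene end lay members near Cebpb (1019 bp, 6.93 in vWAT and 2.82 in scWAT) and Gm4832 (1028 bp, 4.79 and 2.86), and just under it peaks near Cnot6 (986 bp, 5.79) and Lpar1 (985 bp, 5.89), which were left out. At 100 kb from a span, members near Nr3c1 (99.9 kb, 7.05) and Hmgn3 (99.8 kb, 5.72) were the last inside and peaks near Cops8 (100.1 kb, 3.84) and Zfp36l2 (100.2 kb, 3.83) the first outside. The smallest overlaps with scWAT were 1 bp near Errfi1 (4.04 and 3.42) and 2 bp inside Lix1 (3.52 and 2.57), both below the members' lower quartile in vWAT.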

How the data were processed

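ERα ChIP-seq peak lists of 5 groups were used; H3K27ac and RNA-seq of vWAT were not analysed here. The submitters' processing notes name build mm10, HOMER and BWA 0.7.12 without saying what each was for. The sources used here state no peak caller, control or cut-off, nor whether libraries were pooled. In each list the authors deposited an enrichment ratio, a −log10 p-value and −log10 q-value, a score and the summit offset per peak. The score was not used. Read depth is unknown. Median peak width was 434 bp in the vWAT estradiol list and 407 bp in the scWAT list, and their shares of peaks at or above 2 on the −log10 q scale were 89.9% and 88.0%.

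The members and the gene lists were chosen with earlier results of these data known. Peaks were compared by 1 bp overlap, and a peak took the protein-coding gene whose span held its summit, or else the nearest. Gene spans and start windows come from RefSeq tables on GRCm38.p6, and strand was taken from the windows, which matched in all 1307 overlapping pairs of opposite strand; 892 members had no strand by this match. A genome sequence was not used here, so the element search planned around every summit was replaced by the search in start windows, chosen after seeing the data. Shares carry 95% Wilson intervals, and a count of 0 is given the limit of 3 in the number counted. Named genes were the 12 strongest members by each depot, the 10 genes with most members, up to 5 per list by strongest member, and the 2 peaks on each side of each distance limit. Some genes that this rule gives are left out of the text. Other genes named within a list, the loci shown besides Errfi1, the groups of 4 and the members with a sequence were chosen after their values were seen. Overlap code was tested on simulated data. Alternatives varied the overlap, q-value, list length, absence margin and distances. Software was Python 3.11.15 with pandas 2.3.3, numpy 2.4.6, matplotlib 3.10.9 and scipy 1.17.1.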

Additional observations from a re-analysis of the deposited data

How the results depend on the processing

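Under 5 other forms of the rule the number of members was 3266 to 3987, and with each list held to 5193 peaks it was 1180. At that equal length the median enrichment was 9.36 in vWAT and 6.22 in scWAT, close summits 92.2%, clustered members 5.68% and genes with a member 5.37%, and 6 of 20 gene lists stayed within 1.5 times their count, against 14 to 20 under the others; fewer peaks enter by construction. With reciprocal overlap of 50% these values were 6.08, 4.10, 79.1%, 13.8% and 13.9%. With peaks under 2 on the −log10 q scale left out of all lists, the medians were 6.10 and 4.05 and close summits 75.3%. Genes with a member were 14.7% with a margin of 1 kb around the other lists, 10.9% with 5 kb from gene ends, 10.7% within 10 kb of the gene and 12.3% with 1 gene per member. The share inside spans was 63.3% with a limit of 50 kb, members within 5 kb of another 7.04%, and summits within 50 bp 46.5%. In start windows the elements numbered 1 of 8 windows at equal length and 5 to 8 of 32 to 50 otherwise. The other values moved by less than their 95% interval.

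No paired analysis was possible because each group has 1 peak list, and for the same reason no library was left out. The element search around all summits, its 100-base window and its alternatives were not run, because no genome sequence was used here. Absence from a list depends on its length and unknown depth, and BAT rests on 1 library.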
